A study of Mus musculus with 24 samples.

Results

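The response of DN3a thymocytes to interleukin 7 (IL7) was measured as the difference between 4 cultures that received IL7 and 4 that did not, which are 8 of the 24 arrays of the series. The arrays were taken by their titles, and the sort number in the title joined each IL7-treated culture to the untreated culture of the same sort. DN3a thymocytes had been sorted from C57BL/6J mice of the genotype Il7r+/+ in 4 independent sorts as lineage-negative, cKit-negative, CD25-positive cells with low CD71 and low forward scatter. All cultures, untreated ones included, were rested for 1 h after the sort, and the 3 h that followed passed either with 10 ng/ml IL7 or without treatment. The other 16 arrays hold DN3b and DN4 thymocytes treated in the same way, and they are used only to show where DN3a differed. The labels give neither the age nor the number of mice in a sort, and the untreated cultures are cells kept in culture rather than cells fresh from the thymus. Of the genes on the array, 8820 had a probe that was detected on at least 4 of the 24 arrays, and all of them were tested.

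IL7 is made by stromal cells of the thymus and is required for the survival and expansion of early thymocytes. It joins the IL7 receptor alpha chain to the common gamma chain, which brings the kinases JAK1 and JAK3 together. These phosphorylate STAT5, whose dimers bind palindromic sites in DNA, and the receptor also feeds the PI3K and AKT pathway, which inactivates FOXO factors. DN3a thymocytes are small, largely resting cells that rearrange the T cell receptor beta locus and have not yet passed the pre-T cell receptor checkpoint.

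IL7 changed the level of 1850 genes in DN3a cells after adjustment over the 8820 genes tested, 21.0% of them (limma, adjusted p under 0.05). Of these, 833 rose (9.44% of the genes tested) and 1017 fell (11.5%). Large changes were mostly rises: 112 genes rose at least 2-fold (1.27%) and 34 fell at least 2-fold (0.385%), and 25 against 3 moved at least 4-fold. Most calls were small, with a median log2 change of 0.45 among the genes that rose and -0.42 among those that fell, and the median over all genes was -0.03. All 4 sorts moved the same way for 1792 of the 1850 genes. The 4 IL7-treated arrays lay wholly above the 4 untreated arrays for 632 genes (7.17%) and wholly below them for 649 (7.36%). Without sort 2 the count of changed genes was 1210. It was 616 without sorts 1 and 3 and 478 without sorts 2 and 3. The red cell gene Hba-a1 was high in sorts 1 and 3, and the granulocyte gene S100a8 was highest in sorts 2 and 3, as described further on. Leaving out 2 sorts also leaves fewer pairs to test, and no other 2 sorts were left out together. The part of these cells in the counts therefore cannot be told apart from that of the smaller number of sorts.

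**Figure D1:**
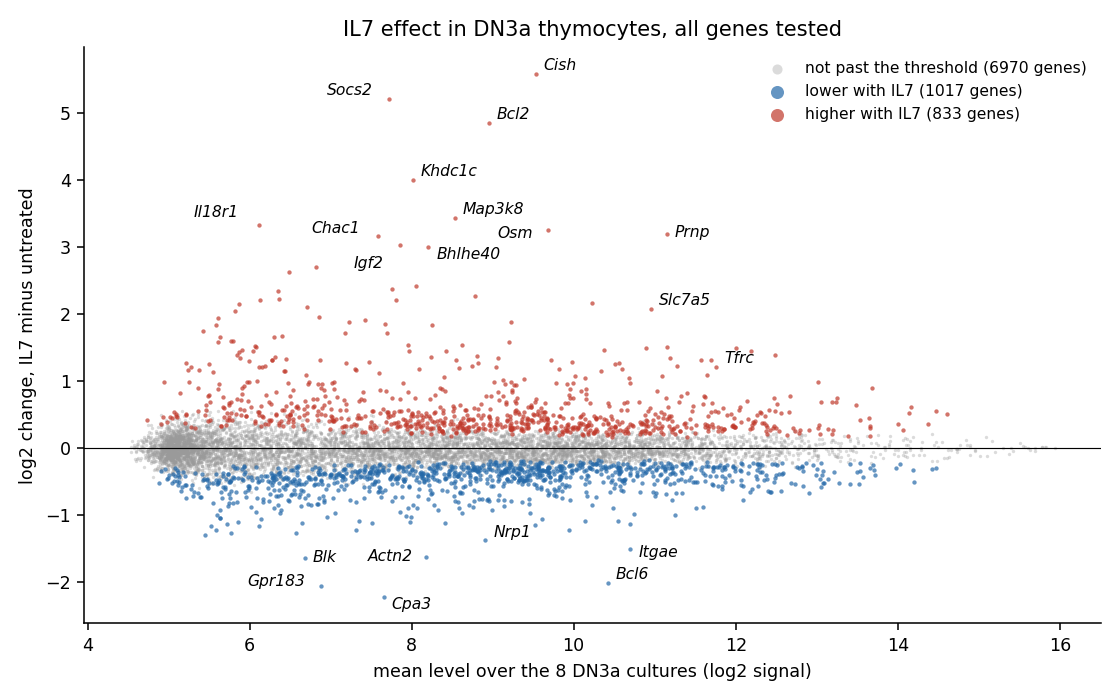
Change with IL7 in DN3a cells for each of the 8820 genes tested (vertical axis, log2 IL7 minus untreated) against its mean level over the 8 DN3a cultures (horizontal axis, log2 signal), red for the 833 genes that rose, blue for the 1017 that fell and grey for the rest. The rises reach a log2 change of 5.59 (Cish), whereas the deepest fall is -2.23 (Cpa3).

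The SOCS family of STAT inhibitors held the largest changes of all. Cish and Socs2, which encode SH2 proteins that bind activated cytokine receptors and damp STAT5 signalling, ranked first and second among all genes. Cish had a log2 signal of 6.61, 6.64, 6.95 and 6.75 in the untreated cultures of sorts 1 to 4 and of 12.17, 12.29, 12.42 and 12.43 in the IL7-treated cultures. Socs2 stood at 5.35, 5.47, 4.60 and 5.04 without IL7, near the detection limit in 2 of the 4 arrays, and at 10.37, 10.27, 10.07 and 10.59 with it. In both genes all IL7-treated cultures lay far above all untreated ones, and the sorts differed little from each other. These are a 48.2-fold rise of Cish (log2 change 5.59 ± 0.15 SE, adjusted p = 3.04e-10) and a rise of Socs2 by 5.21 ± 0.17 on the log2 scale (adjusted p = 9.51e-10).

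The classical JAK inhibitors of the family moved far less. Socs1 rose by 0.84 ± 0.18 and Socs3 by 0.70 ± 0.10 on the log2 scale. Without IL7, Socs3 already had a mean log2 signal of 11.79 ± 0.29 (SD, n = 4). The other 8 members measured, among them Socs4, Socs5, Socs6, Socs7 and Pias1 to Pias4, did not pass the test, and their log2 changes lay between -0.18 (Pias3) and 0.23 (Socs4). In all, 4 of 12 members rose (33.3%, against 9.44% of all genes tested) and 0 fell (against 11.5%).

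The promoters of the strongest responders were searched for the palindrome TTCNNNGAA on both strands, because STAT5 dimers bind it. RefSeq promoters (GRCm38.p6) were at hand for 21 of the 30 genes with the largest rises, and 5 of their 27 promoters (18.5%) held the palindrome, against 8.3% of all 32851 promoters of the same length and 7.13% of those of the tested genes. The 5 were those of Cish, Il18r1, Gbp5, Emilin2 and Ifitm3. Among the 30 largest falls, 2 of 27 promoters (7.41%) held it, and both belong to Bcl6. The promoters of Cish, Il18r1 and Bcl6 are shown with the palindromes in capitals, because they carry 2, 2 and 3 of them in the 250 bases before and 50 bases after the annotated start. Il18r1 has 3 annotated promoters and Bcl6 has 2, of which the one with most palindromes is given. The Cish promoter lies at chr9:107296409-107296708 on the plus strand, that of Il18r1 at chr1:40465756-40466055 on the plus strand, and that of Bcl6 at chr16:23981234-23981533 on the minus strand, and each is written 5′ to 3′ in the direction of the gene.
Cish: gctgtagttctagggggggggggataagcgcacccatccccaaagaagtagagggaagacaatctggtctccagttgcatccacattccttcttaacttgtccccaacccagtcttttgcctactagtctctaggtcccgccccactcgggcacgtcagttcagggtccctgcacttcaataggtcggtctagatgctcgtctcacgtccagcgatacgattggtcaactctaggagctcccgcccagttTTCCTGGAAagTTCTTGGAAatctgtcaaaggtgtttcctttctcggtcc
Il18r1: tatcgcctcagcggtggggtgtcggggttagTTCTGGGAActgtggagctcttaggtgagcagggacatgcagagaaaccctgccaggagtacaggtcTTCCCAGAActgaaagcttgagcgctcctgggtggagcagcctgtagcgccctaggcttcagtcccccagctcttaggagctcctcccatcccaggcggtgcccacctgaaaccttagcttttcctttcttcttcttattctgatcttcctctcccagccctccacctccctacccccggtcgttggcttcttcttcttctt
Bcl6: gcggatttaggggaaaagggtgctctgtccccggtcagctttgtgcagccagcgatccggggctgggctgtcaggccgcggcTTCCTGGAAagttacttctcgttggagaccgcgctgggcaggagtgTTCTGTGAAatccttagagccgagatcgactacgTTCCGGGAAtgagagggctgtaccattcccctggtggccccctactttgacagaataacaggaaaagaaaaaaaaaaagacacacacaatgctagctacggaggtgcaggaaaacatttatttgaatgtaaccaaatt
Counted from the annotated start as base 1, the palindromes of Cish begin at bases 1 and 12. In Il18r1 they begin at -219 and -152, and in Bcl6 at -168, -122 and -88. A match of these letters is a description of the sequence, and binding was not measured here.

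The chains and kinases that transmit the signal changed little. The IL7 receptor alpha chain gene Il7r stood at 9.40, 9.22, 9.60 and 9.89 without IL7 and at 9.97, 9.47, 9.04 and 9.07 with it, and its change of -0.14 ± 0.18 did not pass the test (adjusted p = 0.633). The IL7-treated culture was the higher one in sorts 1 and 2 and the lower one in sorts 3 and 4. Of 19 receptor, JAK and STAT genes, Ptpn1 rose by 0.89 ± 0.15, and Jak1, Stat4 and Tyk2 fell by 0.53, 0.37 and 0.30 on the log2 scale. That is 5.26% higher and 15.8% lower, near the 9.44% and 11.5% of all genes tested. The fall of Jak1 did not pass without sort 1, 2 or 3, nor that of Tyk2 without sort 1, 3 or 4. Ptpn1 encodes a phosphatase that removes phosphate from JAK kinases. The change of Stat5a was -0.15 ± 0.075, which did not pass the test.

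IL7 raised the survival gene Bcl2 by 28.9-fold. Bcl2 encodes an anti-apoptotic protein of the mitochondrial membrane and is a known target of IL7 in lymphocytes. Its log2 signal went from 6.33, 6.21, 6.60 and 6.97 to 11.32, 11.30, 11.47 and 11.43 in sorts 1 to 4 (log2 change 4.85 ± 0.14, adjusted p = 3.50e-10). The IL7-treated values lay closer together than the untreated ones, and the groups were wide apart in every sort. All 5 other detected Bcl2 probes rose as well, with log2 changes from 2.16 to 4.83.

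Other genes of the BCL2 family moved by less than 2-fold. Bcl2l1, which encodes BCL-XL, rose by 0.56 ± 0.11 (adjusted p = 0.00295), and Mcl1, which encodes another anti-apoptotic protein, changed by 0.27 ± 0.10 (adjusted p = 0.0881). Of 8 pro-apoptotic BCL2 family genes, Bbc3, which encodes PUMA, fell by 0.33 ± 0.086, and Bmf (-0.49), Bcl2l11 (-0.060) and Pmaip1 (0.20) did not pass the test. The fall of Bbc3 passed neither without sort 1 nor without sort 2. With 1 of 8 lower (12.5%), the share of falls in this list was near the 11.5% of all genes tested. Among death receptor genes, Fas rose by 0.49 ± 0.094, while Fasl, the gene of its ligand, fell by 1.17 ± 0.13.

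Some of the large rises were those of genes for secreted factors and their receptors. Osm, the gene of the cytokine oncostatin M, had a log2 signal of 8.09, 7.84, 8.39 and 7.90 without IL7 and of 11.51, 11.28, 10.98 and 11.44 with it, a 9.52-fold rise (log2 change 3.25 ± 0.15, adjusted p = 2.47e-08). Il18r1, which encodes the ligand-binding chain of the interleukin 18 receptor, was detected on none of the untreated arrays and on all 4 IL7-treated ones. Its measured means were 4.45 and 7.79, and it was at least 6.00-fold higher with IL7 (adjusted p = 1.35e-06). For genes seen in 1 group only, such a bound sets the bright group against the dimmest detected probes of the dim arrays.

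Igf2, the gene of insulin-like growth factor 2, rose from 6.76, 6.25, 6.37 and 5.99 to 9.69, 9.28, 9.44 and 9.09 (8.20-fold, adjusted p = 2.47e-08), and Igfbp4, which encodes a protein that binds such factors, rose 3.86-fold. The cytokine genes Lta and Tnf also rose, Lta at least 2.57-fold (not detected without IL7) and Tnf by 1.51 ± 0.24 on the log2 scale. Falls in this group were those of Il17rb (-1.09 ± 0.094), which encodes a receptor for interleukin 25, and of Ccl4, Il18, Tgfbr2 and Il16, at log2 changes between -0.58 and -0.37. Over the 31 cytokine and receptor genes measured, 8 rose (25.8%, against 9.44% of all genes tested) and 5 fell (16.1%, against 11.5%), with a median log2 change of 0.062.

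Other large rises were those of genes for signalling kinases and transcription regulators. Map3k8, which encodes the MAP kinase kinase kinase TPL2, went from 6.95, 6.69, 6.68 and 6.96 to 10.53, 10.16, 9.87 and 10.44 (10.8-fold, adjusted p = 5.75e-07). Pim1, the gene of a growth-promoting serine/threonine kinase under STAT5 control in lymphocytes, rose by 1.18 ± 0.18 (adjusted p = 5.92e-04), and a second, dimmer Pim1 probe changed by -0.17 ± 0.15. Bhlhe40, which encodes a transcriptional repressor, stood at 6.78, 6.66, 6.81 and 6.58 without IL7 and at 10.12, 9.68, 9.47 and 9.54 with it (7.99-fold, adjusted p = 3.88e-09). All 4 sorts gave Bhlhe40 a rise of similar size. Gadd45b, a stress gene that activates MAP kinases, rose 6.50-fold and Cebpb, the gene of the transcription factor C/EBP beta, 4.63-fold.

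The other large rises belonged to diverse classes of genes. Prnp, which encodes the cellular prion protein, rose from 9.67, 9.58, 9.69 and 9.26 to 12.73, 12.84, 12.84 and 12.60 (9.20-fold, adjusted p = 9.51e-10). Khdc1c rose 16.1-fold (log2 change 4.01 ± 0.29). Gja1, the gene of the gap junction protein connexin 43, rose 5.20-fold, the navigator gene Nav1 6.18-fold, Sema7a, a membrane-anchored semaphorin, 5.34-fold, and the matrix protein gene Emilin2 5.08-fold. Of 2 other Nav1 probes, one rose by 3.18 on the log2 scale and one changed by -0.24. The interferon-inducible genes Ifitm3 and Gbp5 rose 4.83-fold and 3.75-fold, and Dmbt1, Fam20a, Tmtc2 and Slc35g1, not detected without IL7, were at least 4.09-fold, 3.35-fold, 3.12-fold and 2.59-fold higher. The rest of the 30 were Akr1c12, Dyrk4 and C1qtnf1, 3.69- to 4.48-fold higher, and the amino acid and stress response genes described further on.

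**Figure D2:**
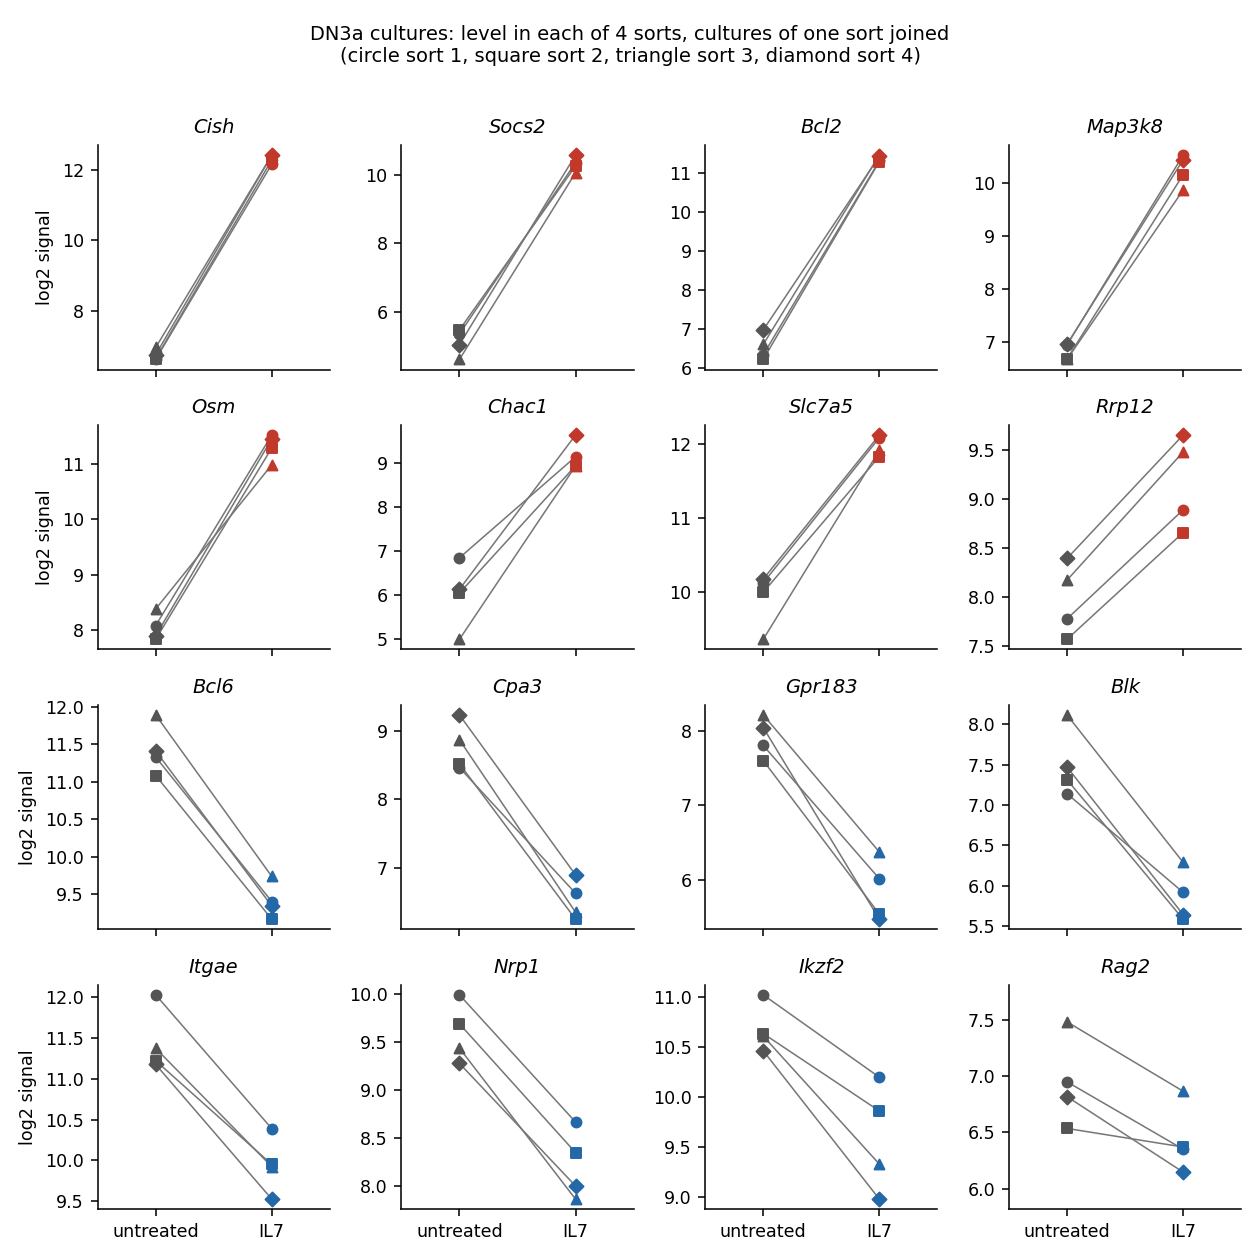
Log2 signal of selected genes in each DN3a culture (vertical axis) without and with IL7 (horizontal axis), with the cultures of a sort joined and one symbol per sort. Cish rises from between 6.61 and 6.95 to between 12.17 and 12.43, and of the genes shown only Rag2 has groups that overlap.

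The deepest falls were led by Cpa3, Gpr183 and Bcl6. Bcl6, which encodes a transcriptional repressor and is known to be repressed by STAT5 in lymphocytes, stood at 11.33, 11.08, 11.89 and 11.41 without IL7 and at 9.40, 9.17, 9.74 and 9.34 with it, a 4.04-fold fall (log2 change -2.01 ± 0.10, adjusted p = 3.18e-08). Gpr183, the gene of the oxysterol receptor EBI2 that guides lymphocyte migration, fell from 7.80, 7.60, 8.21 and 8.04 to 6.02, 5.55, 6.38 and 5.48 (4.16-fold, adjusted p = 2.07e-06). Cpa3, which encodes a carboxypeptidase of mast cells that is also transcribed in early progenitors, went from 8.46, 8.52, 8.87 and 9.23 to 6.64, 6.26, 6.36 and 6.91 (4.68-fold, adjusted p = 2.65e-06). All 4 sorts showed each of these falls, and the groups did not overlap. In bulk RNA, fewer cells of a kind and less RNA per cell cannot be told apart.

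The other large falls included several genes of surface proteins and signalling adaptors. Itgae, which encodes the CD103 integrin chain, fell from 12.03, 11.22, 11.38 and 11.18 to 10.39, 9.95, 9.92 and 9.52 (2.84-fold, adjusted p = 2.54e-06), and all 5 of its other detected probes fell too. Nrp1, the gene of the semaphorin and VEGF coreceptor neuropilin 1, fell 2.60-fold, and Blk, which encodes a Src family kinase of B cells and gamma-delta T cells, fell 3.13-fold. Sh2d1a, the gene of the SLAM adaptor SAP, fell from 10.13, 9.98, 10.26 and 10.18 to 8.86, 8.97, 9.26 and 9.18 (2.10-fold). The alpha-actinin gene Actn2 fell 3.10-fold and the acyl-CoA thioesterase genes Acot5 and Acot11 2.41- and 2.07-fold. The remaining genes of the 30 deepest falls fell by between 2.07-fold (Padi6, a peptidylarginine deiminase gene) and 2.40-fold (Angptl7, a gene of a secreted angiopoietin-like protein). They include Mmp13, which encodes collagenase 3 (2.17-fold), the neuropeptide gene Gal (2.20-fold), Ppm1e, a protein phosphatase gene (2.34-fold) and Il17re, which encodes the receptor for interleukin 17C (2.08-fold). A second, dimmer Mmp13 probe did not fall (-0.07 ± 0.18).

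Genes that build ribosomes rose together, while genes of the ribosome itself did not. Of 64 measured ribosome biogenesis genes, which process ribosomal RNA and assemble the subunits in the nucleolus, 36 rose (56.2%, against 9.44% of all genes tested) and 0 fell, with a median log2 change of 0.31 against -0.03 for all genes. Rrp12, which encodes an export factor of pre-ribosomal particles, rose from 7.78, 7.57, 8.18 and 8.40 to 8.89, 8.66, 9.48 and 9.66 (2.29-fold, adjusted p = 4.43e-07). The rise of Rrp12 was of nearly the same size in each sort, although the sorts themselves differed in level. The next largest were Bop1 (0.96 ± 0.12 on the log2 scale), Nop56 (0.69 ± 0.076), a core protein of small nucleolar RNPs, and Gar1 (0.69 ± 0.057). Polr1a, which encodes the largest subunit of RNA polymerase I, rose by 0.62 ± 0.085, the RNA helicase gene Ddx21 by 0.66 ± 0.10, and Fbl, the gene of the methyltransferase fibrillarin, by 0.57 ± 0.076.

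Of 57 cytosolic ribosomal protein genes, 0 rose and 0 fell, and their log2 changes lay between -0.19 (Rpl27a) and 0.26 (Rpsa) around a median of -0.01. At an unadjusted p under 0.05 the count in limma was also 0, and the limma fit of the 8 DN3a arrays alone, the fit with no block, the fit of the authors' values and the unmoderated paired test each called 0 as well. Without sorts 1 and 3 the count of ribosome biogenesis genes that rose was 17, and without sorts 2 and 3 it was 12, with medians of 0.38 and 0.34. It was 23 without sort 4 alone and at least 26 without any other single sort. The E-box CACGTG, which MYC and its partners bind, was found on both strands in 12 of 64 promoters of the measured ribosome biogenesis genes (18.8%) and in 6 of 32 promoters of those that rose (18.8%), against 9.85% of the promoters of all tested genes and 11.9% of those of ribosomal protein genes. Myc itself rose by 0.49 ± 0.13 (adjusted p = 0.0176), from 5.92, 5.73, 6.06 and 5.74 to 6.16, 6.06, 6.74 and 6.46, and the MAX-binding repressor gene Mxd4 fell by 0.78 ± 0.10. The rise of Myc did not pass the test without sort 3 or without sort 4.

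Other parts of the machinery of protein production rose more selectively. The counts that follow stand against 9.44% of all genes tested that rose and 11.5% that fell. Of 33 translation initiation and elongation factor genes 8 rose, with Eif3b highest at 0.75 ± 0.085, and 1 fell, Eef2k (-0.75 ± 0.10), which encodes the kinase that inhibits elongation factor 2. Among chaperonin and prefoldin genes 6 of 13 rose, led by Cct6a (0.60 ± 0.069). Of 39 proteasome genes 12 rose and 1 fell, the immunoproteasome gene Psmb9 (-0.30 ± 0.084). Among nuclear transport genes 7 of 22 rose, with Ipo4 at 0.83 ± 0.13 and Ranbp1 at 0.61 ± 0.063. Of mitochondrial genes, 10 of 70 mitochondrial ribosomal protein genes rose and 2 fell (median 0.087), and 5 of 70 respiratory chain and ATP synthase genes rose (median 0.051), a share of 7.14% that lies under the 9.44% of all genes. The chaperonin and prefoldin genes that rose numbered 3 without any 1 sort, and the proteasome genes between 5 and 8. Without sorts 1 and 3 the rises numbered 2 translation factor, 2 chaperonin and prefoldin, 1 proteasome and 3 nuclear transport genes, and without sorts 2 and 3 they numbered 2, 0, 0 and 2.

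**Figure D3:**
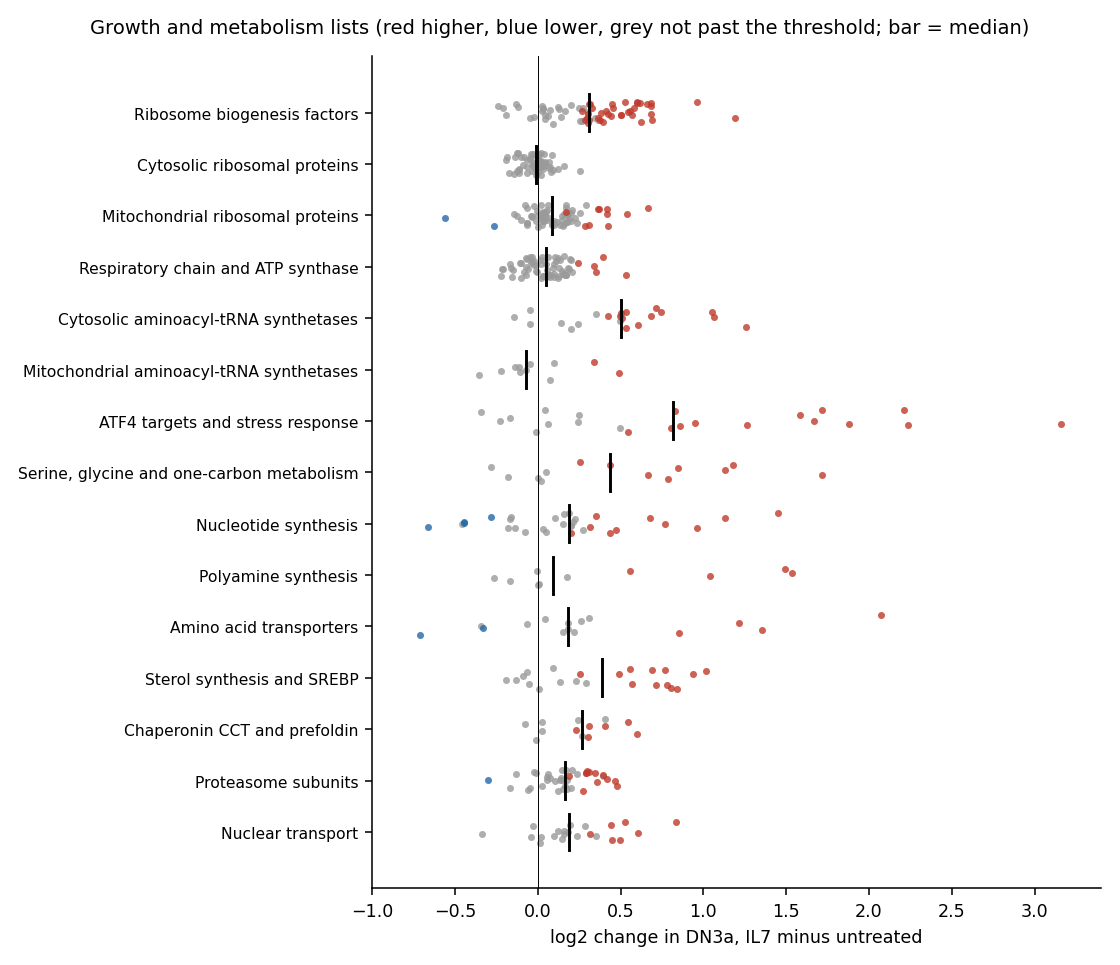
Log2 change with IL7 in DN3a cells (horizontal axis) of every measured gene of 15 growth and metabolism lists, one row per list with its median as a black bar and points spread vertically only for legibility. Ribosome biogenesis genes (median 0.31) and cytosolic aminoacyl-tRNA synthetase genes (median 0.51) lie to the right, and cytosolic ribosomal protein genes (median -0.01) gather at 0.

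A group of genes that the transcription factor ATF4 controls rose strongly. ATF4 is translated when amino acids are short or the integrated stress response is on, and it switches on amino acid synthesis, uptake and tRNA charging. Chac1, which encodes an enzyme that degrades glutathione, stood at 6.84, 6.04, 4.99 and 6.13 without IL7 and at 9.14, 8.93, 8.93 and 9.63 with it (8.93-fold, adjusted p = 5.92e-07). The untreated values of Chac1 differed between sorts more than the treated ones, and sort 3 started lowest. Trib3, the gene of a pseudokinase that restrains AKT, rose from 5.19, 5.26, 5.29 and 5.26 to 7.31, 7.72, 7.23 and 7.66 (4.70-fold, adjusted p = 2.60e-07). Of 22 measured ATF4 targets and stress response genes, 13 rose (59.1%, against 9.44% of all genes tested) and 0 fell (against 11.5%). Their median log2 change was 0.82. Atf4 itself rose by 0.95 ± 0.076 and Atf5 by 0.83 ± 0.065, whereas Slc7a11, a cystine transporter gene often counted among the targets, had a log2 change of -0.34 ± 0.14 and did not pass the test.

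The ATF4 element TGATGNAA was sought on both strands of the same promoters. It was present in 9 of 23 promoters of the measured ATF4 list (39.1%) and in 5 of 16 promoters of cytosolic tRNA synthetase genes (31.2%), against 2.53% of the promoters of all tested genes and 3.97% of all promoters. The list was drawn up from genes known as ATF4 targets, so that a high share says nothing of IL7. In the genes of the list that rose the share was 5 of 12 promoters (41.7%). The promoters of Chac1, Trib3 and Asns, which encodes asparagine synthetase, are shown with the element in capitals, as examples from genes that rose at least 2-fold. They lie at chr2:119350992-119351291 on the plus strand, chr2:152344011-152344310 on the minus strand and chr6:7693160-7693459 on the minus strand (GRCm38.p6, RefSeq).
Chac1: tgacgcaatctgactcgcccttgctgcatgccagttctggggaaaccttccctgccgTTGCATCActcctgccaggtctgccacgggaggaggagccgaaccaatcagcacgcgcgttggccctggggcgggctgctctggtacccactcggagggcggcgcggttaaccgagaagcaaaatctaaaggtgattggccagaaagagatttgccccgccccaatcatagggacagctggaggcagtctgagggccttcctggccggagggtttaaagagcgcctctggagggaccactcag
Trib3: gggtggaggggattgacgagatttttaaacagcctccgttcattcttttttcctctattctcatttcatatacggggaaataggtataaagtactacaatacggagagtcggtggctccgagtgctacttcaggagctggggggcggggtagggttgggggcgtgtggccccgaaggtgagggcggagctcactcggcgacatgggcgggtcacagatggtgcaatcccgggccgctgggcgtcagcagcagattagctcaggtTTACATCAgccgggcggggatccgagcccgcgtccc
Asns: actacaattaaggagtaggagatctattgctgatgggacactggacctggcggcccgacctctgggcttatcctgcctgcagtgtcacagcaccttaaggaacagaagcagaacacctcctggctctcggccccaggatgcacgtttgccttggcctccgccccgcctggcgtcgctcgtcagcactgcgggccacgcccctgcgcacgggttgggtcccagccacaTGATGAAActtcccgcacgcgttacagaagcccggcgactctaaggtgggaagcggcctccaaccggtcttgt
In Asns the element begins at -23, in Chac1 at -193 and in Trib3 at base 15, the latter 2 on the opposite strand.

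Genes of amino acid transport moved in both directions, while many tRNA synthetase genes rose. Slc7a5, which encodes the LAT1 transporter of large neutral amino acids, rose from 10.12, 10.00, 9.36 and 10.18 to 12.08, 11.83, 11.91 and 12.12 (4.20-fold, adjusted p = 3.73e-08), and its untreated level was lowest in sort 3. Its partner chain gene Slc3a2 had a log2 change of 0.31 ± 0.15, which did not pass the test, and was detected on 1 of the 8 arrays. Slc6a9, a glycine transporter gene, rose by 1.35 ± 0.10, and Slc1a4, a transporter of serine and alanine, was at least 1.60-fold higher and was not detected without IL7. Of 15 amino acid transporter genes 4 rose (26.7%, against 9.44% of all genes) and 2 fell (13.3%, against 11.5%), the latter being Slc16a10 (-0.71) and Slc38a9 (-0.33), the second of which reports lysosomal arginine to mTORC1. Among cytosolic tRNA synthetase genes and their complex partners 13 of 21 rose (61.9%) and 0 fell, led by Aars (1.25 ± 0.079), Aimp2 (1.06 ± 0.073) and Iars (1.05 ± 0.066), whereas 2 of 11 mitochondrial synthetase genes rose, Mars2 and Ears2.

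Metabolic pathways that feed growth showed a pattern enzyme by enzyme. In serine, glycine and one-carbon metabolism 8 of 13 genes rose (61.5%, against 9.44% of all genes tested) and 0 fell (against 11.5%). Mthfd2, which encodes the mitochondrial methylene tetrahydrofolate dehydrogenase, rose from 6.52, 6.36, 5.65 and 6.75 to 8.09, 7.84, 7.82 and 8.37 (3.28-fold, adjusted p = 3.45e-07), and Shmt2 (0.85), Mthfd1 (0.79), Psat1 (0.67) and Phgdh (0.44) rose with it. Shmt1, not detected without IL7, was at least 1.88-fold higher. In polyamine synthesis 4 of 10 genes rose (40%, against the same 9.44%) and 0 fell. The 4 were the spermidine synthase gene Srm (2.90-fold), Eif5a (2.81-fold), whose product carries the spermidine-derived residue hypusine, Smox and Mtap. Odc1, which encodes the rate-limiting enzyme ornithine decarboxylase, had a log2 change of 0.17 ± 0.087 and did not pass the test.

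Nucleotide synthesis genes rose more often than all genes did and fell at nearly the same share. Of 31 genes 10 rose (32.3%, against 9.44% of all genes tested) and 4 fell (12.9%, against 11.5%). Those that rose include Uck2 (2.73-fold), Ctps (1.95-fold), which encodes CTP synthase, Gart (0.68 on the log2 scale) and Cad (0.47), which starts pyrimidine synthesis. The 4 that fell were Rrm1 (-0.28), the large subunit of ribonucleotide reductase, the thymidine kinase gene Tk1 (-0.44), the deoxycytidine kinase gene Dck (-0.45) and Adssl1 (-0.66). Sterol synthesis moved in one direction: 12 of 22 genes rose (54.5%) and 0 fell, with Mvd at 1.02 ± 0.10, Cyp51 at 0.84 ± 0.093 and Sqle, squalene epoxidase, at 0.78 ± 0.072. Of 19 glycolysis and glucose uptake genes 5 rose and 3 fell. Hk2, which encodes the inducible hexokinase, went from 5.75, 5.11, 5.95 and 5.50 to 6.71, 6.21, 6.77 and 7.53 (2.34-fold), the glucose transporter gene Slc2a1 rose by 0.36 ± 0.062, and its relative Slc2a3 fell by 0.36 ± 0.092.

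Genes of the PI3K, AKT and mTOR pathway moved at specific positions. Eif4ebp1, which encodes the translation repressor 4E-BP1 and is also an ATF4 target, rose from 8.08, 8.65, 8.07 and 8.37 to 9.84, 10.29, 10.02 and 10.53 (3.68-fold). Castor1, the gene of an arginine sensor that inhibits mTORC1, was not detected without IL7 and was at least 2.47-fold higher with it. Pik3cd, which encodes the leukocyte catalytic subunit p110 delta, rose by 1.31 ± 0.092, with another, dim probe at -0.01, while Pik3r1, the gene of the regulatory subunit p85 alpha, fell by 0.66 ± 0.082 and the inhibitor gene Pik3ip1 by 0.54 ± 0.093. In all 4 of 29 genes rose (13.8%, against 9.44% of all genes) and 6 fell (20.7%, against 11.5%).

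Among FOXO factors and genes linked to quiescence, falls outnumbered rises. Of 28 measured members 12 fell (42.9%, against 11.5% of all genes tested) and 2 rose, with a median log2 change of -0.21. Besides Bcl6, those that fell include Gadd45a (-0.72 ± 0.10), Trp53inp1 (-0.54), Ccng2 (-0.49), the mTORC1 inhibitor gene Sesn3 (-0.47), the ubiquitin ligase gene Fbxo32 (-0.43) and Txnip (-0.41), which limits glucose uptake. The 2 that rose are Gadd45b and Klf2, which encodes a factor of quiescence and egress (1.51 ± 0.10). The count of falls was 5 without sorts 1 and 3, 2 without sorts 2 and 3 and 5 with no block for the sort.

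Among genes of NF-kB signalling more fell than rose, and among interferon-stimulated genes more rose than fell, while most members of both lists did not pass the test. Of 22 NF-kB and TNF signalling genes 8 fell (36.4%, against 11.5% of all genes) and 3 rose. Traf1 fell by 0.83 ± 0.22, Nfkb2, which encodes p100, by 0.66 ± 0.15, Relb by 0.63 ± 0.16, and the inhibitor genes Nfkbia and Tnfaip3 by 0.53 and 0.52 on the log2 scale. Several of these are themselves NF-kB targets. Traf4, Tnfaip8 and Traf6 were the 3 that rose. The count of falls was 1 without sorts 1 and 3 and 0 without sorts 2 and 3, while 7 passed with no block, and without sort 1 or sort 2 alone it was 5. Of 34 interferon-stimulated genes 12 rose (35.3%, against 9.44% of all genes) and 4 fell. Those that rose include the guanylate-binding protein gene Gbp7 (1.21 ± 0.11) and Ifi35 (0.98 ± 0.091). The rises of the interferon-inducible genes Ifitm3 and Gbp5, given above, were larger. The 4 that fell were the antiviral gene Rsad2 (-0.85 ± 0.087), Tap1, Tap2 and Psmb9. The rises of interferon-stimulated genes numbered 4 without sorts 1 and 3 and 4 without sorts 2 and 3.

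**Figure D4:**
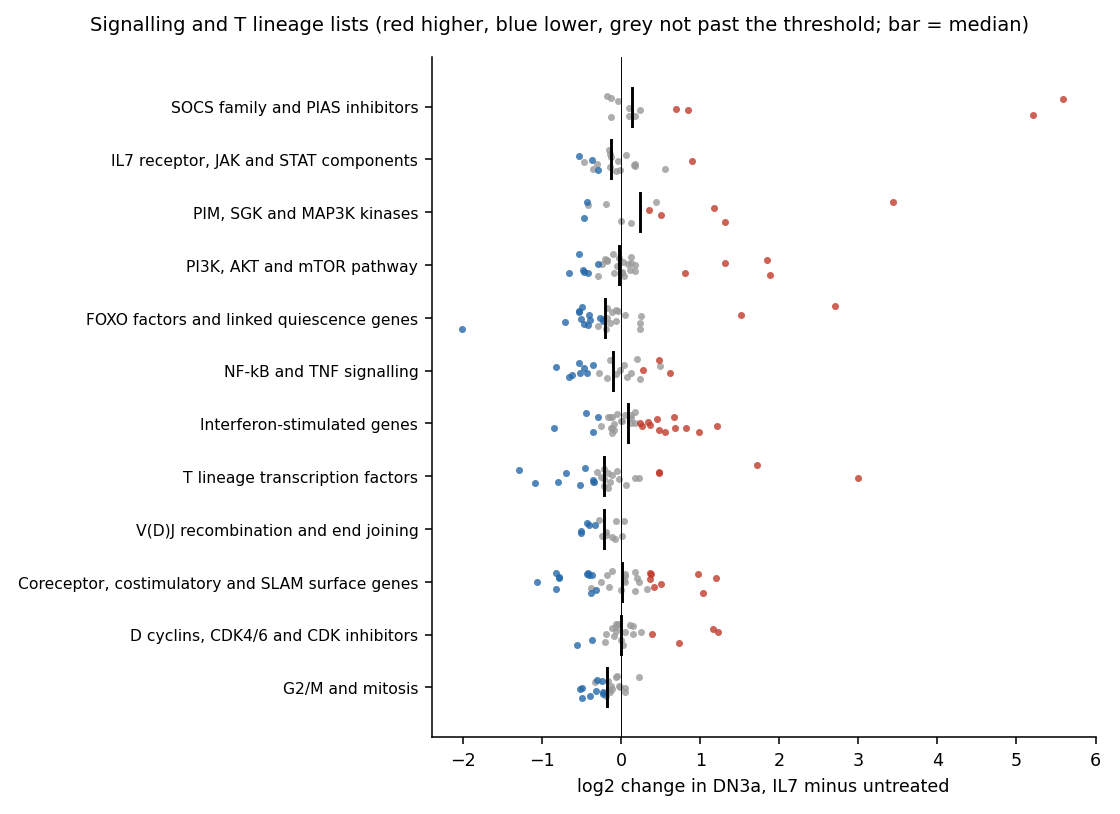
Log2 change with IL7 in DN3a cells (horizontal axis) of every measured gene of 12 signalling, T lineage and cell cycle lists, one row per list with its median as a black bar and points spread vertically only for legibility. Cish (5.59) and Socs2 (5.21) stand alone at the right of the SOCS list. FOXO-linked genes (median -0.21) lie mostly to the left, with Gadd45b and Klf2 furthest to the right.

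Transcription factors of the T lineage were more often lower than higher. Of 27 measured factors 8 fell and 4 rose, with a median log2 change of -0.22. Over all genes tested 11.5% fell and 9.44% rose, with a median of -0.03. Ikzf2, which encodes Helios, fell from 11.02, 10.63, 10.61 and 10.46 to 10.20, 9.86, 9.33 and 8.98 (2.13-fold, adjusted p = 3.54e-05), and its falls in sorts 3 and 4 were larger than in sorts 1 and 2. Pou2af1, the gene of the octamer coactivator OCA-B, was detected on all untreated arrays and on none with IL7, and was at least 1.83-fold lower. Lef1 fell by 0.80 ± 0.12, Gfi1 by 0.70 ± 0.13, Satb1 by 0.52 ± 0.066, Gata3 by 0.46 ± 0.10 and Bcl11b, a factor that fixes T cell fate, by 0.35 ± 0.066. Beside Bhlhe40, Ikzf4 (1.72 ± 0.17), which encodes Eos, Runx1 (0.48) and Ets2 (0.47) rose. The falls numbered 4 without sorts 1 and 3 and 3 without sorts 2 and 3.

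The genes of V(D)J recombination, the process under way in DN3a cells, were lower where they changed. Rag1 stood at 10.58, 11.07, 10.63 and 10.57 without IL7 and at 10.64, 10.76, 10.68 and 9.99 with it, a change of -0.19 ± 0.12 that did not pass the test (adjusted p = 0.287). Rag1 was lower with IL7 in sorts 2 and 4 and slightly higher in sorts 1 and 3. Rag2 went from 6.95, 6.54, 7.48 and 6.82 to 6.35, 6.37, 6.87 and 6.15 (-0.51 ± 0.11, adjusted p = 0.00465). Dntt, which encodes the terminal transferase that adds bases at the joints, fell by 0.41 ± 0.074, and the end-joining genes Xrcc6 and Lig4 fell by 0.51 and 0.43. In all 5 of 14 fell and 0 rose, where 11.5% of all genes tested fell and 9.44% rose. The falls numbered 0 without sorts 1 and 3, 1 without sorts 2 and 3 and 2 with no block. The pre-T cell receptor alpha gene Ptcra had a log2 change of -0.20 ± 0.19 and did not pass the test, nor did Cd3e (-0.18) or Notch1 (-0.29), while Notch3 fell by 0.52 ± 0.11 and Lfng and Hes1 rose by 0.58 and 0.44.

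Surface genes moved in both directions. Of 34 coreceptor, costimulatory and SLAM genes 8 rose (23.5%, against 9.44% of all genes) and 11 fell (32.4%, against 11.5%). Cd24a (1.20 ± 0.18), Tnfrsf18, which encodes GITR (1.03 ± 0.10), and the inhibitory receptor gene Ctla4 (0.97 ± 0.091) were the largest rises. Cd6 (-0.83 ± 0.11), Cd28 (-0.83 ± 0.11), Cd96 (-0.79 ± 0.085) and Cd8b1 (-0.79 ± 0.093) followed Sh2d1a among the falls. Il2ra and Tfrc, whose products CD25 and CD71 defined the sort gate, both rose, Il2ra from 8.90, 9.17, 9.55 and 9.06 to 9.55, 9.92, 10.29 and 9.86 and Tfrc from 11.39, 11.10, 10.78 and 11.35 to 12.71, 12.04, 12.17 and 12.54. The gate was set before the cultures, so that these are changes after the sort.

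Genes of DNA replication and of G2/M and mitosis did not rise as a group, while some D cyclin and CDK genes rose. Ccnd2, the gene of cyclin D2, rose by 1.15 ± 0.13, Cdk6 by 0.73 ± 0.14 and Ccnd3, which pre-T cells need to expand, by 0.38 ± 0.088, but the CDK inhibitor gene Cdkn1a rose too, by 1.22 ± 0.19. E2f2 (-0.56 ± 0.070) and Rbl1 (-0.37 ± 0.073) fell. In this list of D cyclins, CDK4/6 and CDK inhibitors, 4 of 21 genes rose (19%, against 9.44% of all genes tested). The 2 falls are 9.52%, against 11.5%, and the median log2 change was -0.004. Of 24 G2/M and mitosis genes 9 fell (37.5%, against 11.5% of all genes tested) and 0 rose. Of 33 DNA replication genes 2 rose (6.06%, against 9.44%) and 4 fell (12.1%), shares near those of all genes. The G2/M falls ran from Ndc80 (-0.50 ± 0.10), a kinetochore gene, to Top2a (-0.23 ± 0.071), which encodes DNA topoisomerase II alpha. Cdc25c, also one of the 9, was detected on 1 untreated and 0 IL7-treated arrays, and no size is given for it. The G2/M count lay between 4 and 6 with any 1 sort left out, and was 1 with no block, 2 without sorts 1 and 3 and 1 without sorts 2 and 3.

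The cultures carried RNA of a few other cells, which differed by sort. Counts of falls among markers stand against the 11.5% of all genes tested that fell. The red cell gene Hba-a1, which encodes alpha globin, stood at 10.46, 4.56, 10.43 and 4.71 without IL7 and at 10.29, 4.77, 10.08 and 4.57 with it, so that it was high in sorts 1 and 3 and not detected in sorts 2 and 4. S100a8, a granulocyte gene, was 4.52, 8.09, 9.55 and 6.25 and 5.04, 7.10, 9.19 and 5.39, highest in sorts 2 and 3. Neither changed with IL7 past the threshold. The monocyte and granulocyte lysozyme genes Lyz1 and Lyz2 did fall, by 1.03 ± 0.15 and 0.92 ± 0.15, 2 falls among 9 measured myeloid markers, whose summed signal ran from 9.32 to 10.79 without IL7 and from 8.58 to 10.32 with it as a log2 value. Adgre1, Cd14, Itgam and Mpo were detected on no DN3a array. Beside the fall of Cpa3 stands that of the histidine decarboxylase gene Hdc (-0.50 ± 0.14), while Ms4a2, Tpsb2, Mcpt8 and Gata2, which mark mast cells, basophils and progenitors, were detected on no DN3a array. The summed signal of the 3 measured members of that list ran from 8.80 to 9.43 without IL7 and from 7.32 to 7.61 with it. Beside Blk and Il17rb, Cd163l1 fell by 0.32 ± 0.090, which makes 3 of 4 measured gamma-delta markers, with Sox13 at 0.22 ± 0.18 and a summed signal of 11.57 to 12.10 without IL7 and 10.76 to 11.28 with it. The part of these cells in the results was not tested.

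Markers of other stages and cell types moved as well. Their counts stand against 9.44% of all genes tested that rose and 11.5% that fell, and most of these lists are short. Of 6 measured markers of double-positive thymocytes, the stage that follows DN4, 4 fell and 0 rose (median log2 change -0.56): Cd6, Cd8b1, Aqp11 (-0.67 ± 0.075) and Arpp21 (-0.44 ± 0.10). Aqp11 and Arpp21 were bright, with mean log2 signals of 13.24 and 13.78 without IL7, and the groups did not overlap for any of the 4. The summed signal of the list ran from 14.5 to 14.7 without IL7 and from 14.0 to 14.2 with it, and Cd4, Cd8a, Ccr9 and Tmie were detected on no DN3a array. Falls without a rise were also those of Hhex among 3 early progenitor markers and of Pecam1 among 4 markers of thymic stroma and vessels, while 3 of 7 dendritic cell markers fell and 1 rose. Among 5 measured NK and cytotoxic markers Nkg7 rose by 0.78 ± 0.13 and Prf1 fell by 0.25 ± 0.067. Their summed signal ran from 11.45 to 11.61 without IL7 and from 11.83 to 12.19 with it. Among 7 measured mature T cell markers Klf2 (1.51) and Ctla4 (0.97) rose, and Cd6 (-0.83) and Itgae (-1.51) fell. Of 3 B cell markers and 3 erythroid markers 0 passed. The DN stage markers Cd3e, Dntt, Rag1, Bcl11b and Thy1 were detected in every DN3a culture. Of the 15 measured markers of this stage, Rag2, Dntt and Bcl11b were among the falls and Il2ra among the rises, as given above. The summed signal of that list ran from 16.4 to 16.58 without IL7 and from 16.54 to 16.65 with it. The part of other cells in these changes was not tested.

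The response of DN3a cells was set against that of DN3b and DN4 cells, the stages that follow the pre-T cell receptor checkpoint, in the same model. Each subset has its own untreated cultures, and the subsets come from the same 4 sorts. IL7 changed 865 genes in DN3b cells (9.81%) and 215 in DN4 cells (2.44%). The difference of the effects itself passed the test for 150 genes against DN3b (1.70%) and 473 against DN4 (5.36%). Leaving out 1 sort moved these counts to between 46 and 60 and between 167 and 213. They were 0 and 24 without sorts 1 and 3, and 0 and 6 without sorts 2 and 3 (limma, with 876 and 731 differences from DN3b at an unadjusted p under 0.05).

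Amino acid and growth genes were among those in which the effect in DN3a cells was larger. Slc7a5 had a log2 change of 2.07 ± 0.10 in DN3a cells, of 0.24 ± 0.10 in DN3b cells and of 0.13 ± 0.10 in DN4 cells, and only the DN3a rise passed the test (adjusted p of the difference 8.84e-05 for DN3b and 1.88e-05 for DN4). Eif4ebp1 showed log2 changes of 1.88, 0.41 and 0.069 in the same order, Chac1 of 3.16, 1.36 and 1.35, and Rrp12 of 1.19, 0.13 and 0.22 (adjusted p of the difference between 4.86e-04 and 0.0102 for DN3b). Over the ribosome biogenesis list, 2 genes rose in DN3b cells (where 4.80% of all genes did) and 1 in DN4 cells (1.86%), against 36 in DN3a. The effect was smaller past the threshold for 10 genes in DN3b and 17 in DN4 cells and larger for 0 in either, whereas over all genes it was smaller or more negative for 0.964% and 2.73% and larger for 0.737% and 2.63%. The same counts for cytosolic tRNA synthetases were 4 and 9, for sterol synthesis 4 and 8, and for serine and one-carbon metabolism 4 and 7, with 0 larger.

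Some genes outside metabolism also responded more strongly in DN3a cells. On the log2 scale Khdc1c rose by 4.01 in DN3a and 2.09 in DN3b cells, Igf2 by 3.04 and 1.51, and Gja1 by 2.38 and 0.65. In DN4 cells the changes were 0.79, 0.087 and 0.37, none of which passed the test. All of these differences from DN3a passed the test. Il18r1 differed in another way: its change was 3.33 in DN3a and 3.70 in DN3b cells, which did not differ past the threshold (difference 0.36 ± 0.36, adjusted p = 0.677), and 0.50 in DN4 cells (adjusted p = 5.96e-04). Gpr183, which fell by 2.06 in DN3a cells, had log2 changes of -0.51 in DN3b and 0.16 in DN4 cells, with adjusted p of the difference at 0.00425 and 1.39e-04. The fall of Cpa3 was deeper than the change in DN4 cells (-0.39, adjusted p = 0.00132), while the difference from DN3b cells (-1.25) did not pass the test (adjusted p = 0.0786).

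Another set of genes responded less in DN3a cells. Socs3 rose by 0.70 ± 0.10 in DN3a cells but by 2.07 ± 0.10 in DN3b and 2.53 ± 0.10 in DN4 cells (adjusted p of the difference 4.86e-04 and 2.37e-05). Sgk1, which encodes a kinase downstream of PI3K, rose by 1.31 ± 0.24 against 3.01 and 3.05, and the receptor gene Gpr83, not detected in untreated DN3a cultures, by a fitted 1.17 against 3.54 and 3.13. Cd2, an adhesion receptor gene, was detected on no DN3a array and rose by 1.74 ± 0.16 in DN3b cells. Esm1 fell by 0.58 ± 0.12 in DN3a cells and rose by 0.91 and 1.18 in the others. Cish (difference 0.13 ± 0.22, adjusted p = 0.826) and Bcl2 (difference -0.54 ± 0.20, adjusted p = 0.208) did not differ past the threshold between DN3a and DN3b cells, whereas in DN4 cells both rose less than in DN3a cells, by 4.74 and 3.54 (adjusted p of the difference 0.0376 and 0.00232).

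**Figure D5:**
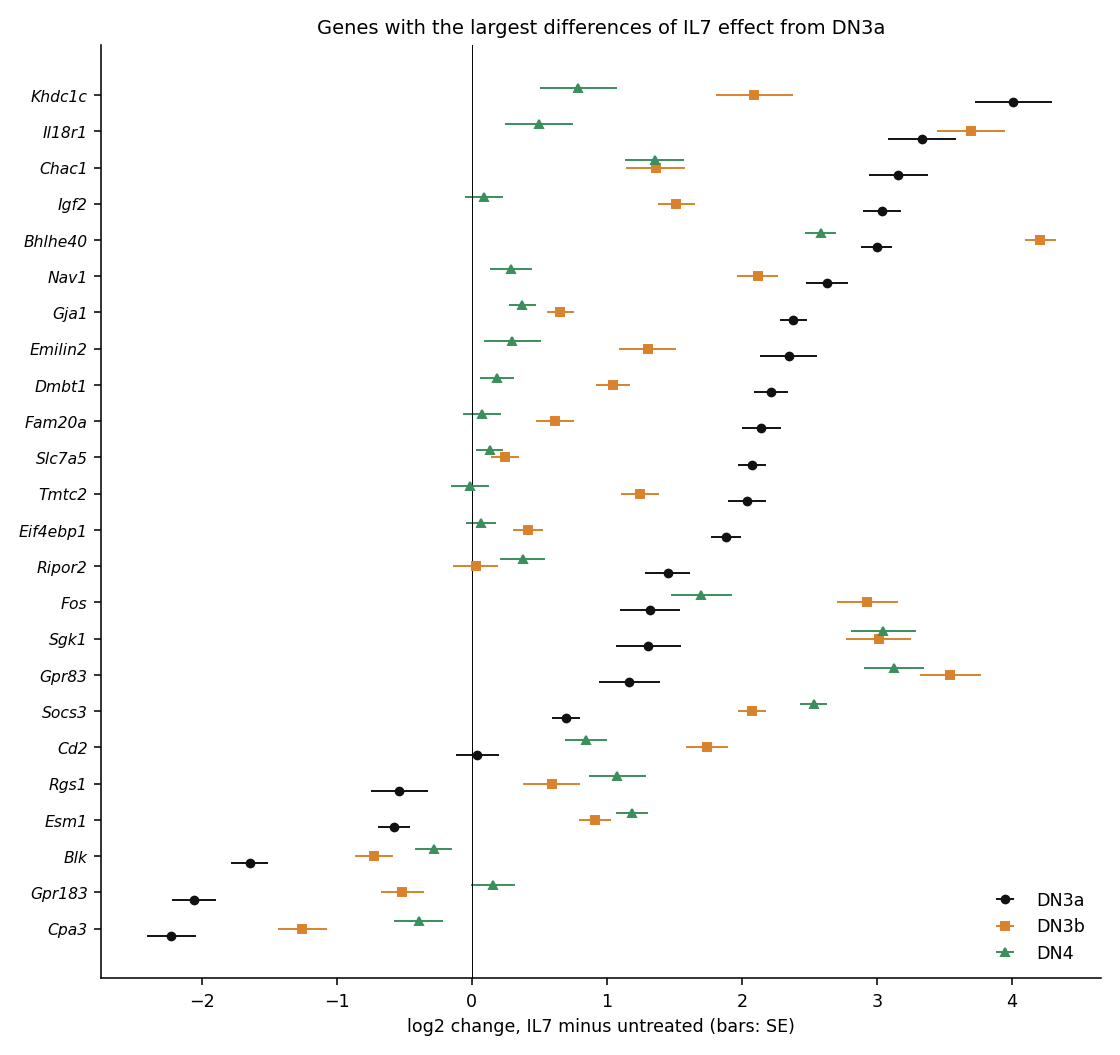
Log2 change with IL7 (horizontal axis, bars show the SE) in DN3a (black circles), DN3b (orange squares) and DN4 cells (green triangles) of the genes with the largest differences of effect from DN3a, ordered by the DN3a change. Slc7a5 (2.07 in DN3a, 0.24 in DN3b) and Igf2 (3.04 in DN3a, 0.09 in DN4) lie far to the right in DN3a, and Socs3 and Sgk1 lie far to the right in the other subsets.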

How the data were processed

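Total RNA of 24 thymocyte cultures was hybridised to Illumina mouse Ref8v2 beadchips, and the 8 DN3a arrays are those described above. The authors deposited linear probe intensities with a detection p-value for each of 25697 probes and array, per the file headers, and GenomeStudio 2011.1 and limma are named in the submitters' processing notes. The authors also deposited log2 values that, per the series' design text, had been background-subtracted and quantile-normalized, and these were used only as an alternative. Platform annotation gave 1 gene symbol to 23978 probes and none to 1719, and the columns were matched to samples by the sample descriptions.

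The intensities were background-corrected, quantile-normalized and log2-transformed with neqc (offset 16, background from the detection p-values) in limma 3.58.1 under R 4.3.3. Probes with a detection p-value under 0.05 on 4 or more arrays were kept (12939, and 12158 with a gene name), and the probe with the highest mean stood for each of 8820 genes (2348 genes had more than 1 kept probe). One limma model over all 24 arrays, with the culture pair (subset and sort) as a block, gave the effect of IL7 in each subset and the differences between effects. Every p-value not said to be otherwise is from this moderated test, two-sided, with Benjamini-Hochberg adjustment over 8820 genes and a threshold of 0.05, and ± after a log2 change is its SE. The design text states paired tests, and paired cultures deviated together: over all genes, the deviations from the group means correlated at 0.444, 0.518, 0.480 and 0.383 in the 4 DN3a pairs and at -0.353 to -0.034 between DN3a cultures of different sorts. Deviations from a group mean cancel out, which by itself pulls the correlations between sorts towards negative values. The sorts were independent per the labels, which do not give the mice behind each. The p-values rest on the spread of the IL7 difference between sorts, pooled over DN3a, DN3b and DN4 cells and moderated across genes. Array number limits the precision; raw median signals of the DN3a arrays ran from 93.3 to 112.6, and 11179 to 11628 probes were detected on each.

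Genes were named if among the 30 largest rises or falls with all 4 sorts in the same direction, as members of gene lists, among the 8 largest differences from DN3b or DN4 cells on each side, or as known IL7 targets and DN3 genes. The members and lists were chosen with earlier results of these data known. Lists are described by counts and medians only. Where a named gene was detected on all arrays of one DN3a group and on none of the other, its fold is given as a bound from the dimmest detected probes, whereas differences between subsets are always fitted values. Promoters came from RefSeq tables (GRCm38.p6) and were searched with Python 3.11.15. The scripts were tested on simulated data, and alternative settings are reported after the results.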

Additional observations from a re-analysis of the deposited data

Results flagged for a closer look

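The test for a sort apart compared the 4 differences between IL7-treated and untreated cultures of a gene, and asked whether the gap from the highest or lowest sort to the nearest other exceeded Dixon's critical value. Of the 188 called genes named in the text, 10 had such a sort, and chance gives about 1 in 20. The log2 change of Osm was 2.59 in sort 3 against 3.43 to 3.54 in the others, that of Slc35g1 was 1.4 in sort 2 against 2.10 to 2.13, and that of Dyrk4 was 1.72 in sort 4 against 2.19 to 2.28. Ctps rose by 1.10 in sort 4 and by 0.91 to 0.93 in the other sorts. Among the falls, Blk changed by -1.22 in sort 1 and by -1.82 to -1.72 elsewhere, and Sh2d1a by -1.27 in sort 1 and by -1.0 to -0.99 elsewhere. Gadd45a (-0.50 in sort 2 against -0.82 to -0.77) and Rag2 (-0.17 in sort 2 against -0.67 to -0.60) fell least in sort 2. Esm1 (-0.70 in sort 2 against -0.54 to -0.53) and Top2a (-0.43 in sort 4 against -0.17 to -0.16) fell most in the sort named.

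The interaction term of the limma model, which tests the difference of the IL7 effects, passed for the genes that follow, given as log2 differences. The effect in DN3b minus that in DN3a was lowest for Khdc1c (-1.92), Slc7a5 (-1.83), Chac1 (-1.80), Gja1 (-1.73), Fam20a (-1.53), Igf2 (-1.52), Eif4ebp1 (-1.46) and Ripor2 (-1.42). It was highest for Gpr83 (2.38), Sgk1 (1.71), Cd2 (1.70), Fos (1.61), Gpr183 (1.54), Esm1 (1.49), Socs3 (1.38) and Bhlhe40 (1.21). The effect in DN4 minus that in DN3a was lowest for Khdc1c (-3.22), Igf2 (-2.95), Il18r1 (-2.83), Nav1 (-2.34), Fam20a (-2.07), Tmtc2 (-2.06), Emilin2 (-2.05) and Dmbt1 (-2.03). It was highest for Gpr183 (2.21), Gpr83 (1.96), Socs3 (1.84), Cpa3 (1.83), Esm1 (1.76), Sgk1 (1.74), Rgs1 (1.61) and Blk (1.36). Gpr183, Cpa3 and Blk, with positive values, fell in DN3a cells, and Socs3, Sgk1 and Gpr83 rose less there. Values of genes not detected in a group, such as Gpr83, Il18r1, Cd2, Fam20a, Tmtc2 and Dmbt1, are fitted and no bounds.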

How the results depend on the processing

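The count of genes changed in DN3a cells (1850) stayed within 1.5 times under 14 of 19 other settings. With no replicate block, so that the pairing of cultures by sort was ignored, 905 genes passed, and 37 and 128 passed for the differences of DN3b and DN4 from DN3a. The unmoderated paired test passed 478. Leaving out 1 sort gave 1210 to 1392 genes, lowest without sort 2, and 46 to 60 and 167 to 213 for the differences from DN3b and DN4, at which each single sort moved the count by more than 1.5 times. Omission of sorts 1 and 3 or of sorts 2 and 3, settings chosen after seeing the data, left 616 and 478 genes in DN3a, 0 and 0 for the difference of DN3b (limma, 876 and 731 at an unadjusted p under 0.05) and 24 and 6 for that of DN4. For the difference of DN3b, 231 passed with detection on all 24 arrays, 354 with no background correction, 277 with an offset of 50 and 361 with the authors' values. For that of DN4, 728 passed with no background correction and 741 with the authors' values. Rises made up 833 of the 1850 calls, and their share under other background corrections and scalings was lowest at 43.1% (median scaling). Rises were the majority with no block (50.9%), in the unmoderated test (54.6%), without sorts 1 and 3 (52.8%) and without sorts 2 and 3 (54.8%).

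Of the 188 called genes named, 76 passed under every setting, and no named gene changed direction past the threshold. With any 1 sort left out, 26 of them failed in at least 1 case: Top2a in all 4 cases, and Bbc3, Ccnd3, Cd163l1, Cdc25c, Fbxo32, Hdc, Hes1, Hhex, Il16, Il18, Jak1, Lfng, Lig4, Myc, Nfkb2, Psmb9, Relb, Rrm1, Sesn3, Slc2a3, Slc38a9, Tap1, Tgfbr2, Traf1 and Tyk2 in 1 to 3 cases. Of 1158 list medians under other settings, 96 moved by more than the SD of the sorts. Another probe of Cd6, Nav1, Pik3cd and Pim1 had the opposite sign or stood near 0. The column headers name no beadchips, so that the alternative with the beadchip as a batch was not run. Genes not detected in 1 group have only a bound on their fold, and changes near background are understated by the offset.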
